A study of Mus musculus with 12 samples.

Results

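The insulin receptor signalling genes described here are 48 genes chosen by name for their place in the pathway: the receptor and its substrates, the lipid and protein kinases below it, the mTOR, RAS-ERK and CBL-TC10 branches, and the proteins that damp the receptor. A member was measured where a probe of the array carried its symbol. Of the 48, 42 had a probe under their present symbol and 4 (Mtor, Rptor, Rictor and Hras) under an older one that RefSeq lists as a synonym, while Gsk3a and Foxo1 had none. The 46 measured members, with 68 probes, stand among 16664 genes with a probe, each represented by its probe with the highest mean over the 12 arrays. The arrays were 1-colour oligonucleotide arrays of BALB/c mouse muscle, as the tissue is labelled, with 3 arrays for each of 4 groups. Normal mice, all labelled female, were untreated (normal mock) or had received 2.5 nmol of mcIRBP (normal mcIRBP), and diabetic mice, all labelled male, were likewise untreated (diabetic mock) or had received 2.5 nmol of mcIRBP (diabetic mcIRBP). mcIRBP is a plant protein, made by bitter melon (Momordica charantia), that binds the insulin receptor. Age, the cause of the diabetes, the route of mcIRBP and the interval from dosing to sampling are not given in the sources used here. No label states that the 3 arrays of a group came from separate mice, so p-values measure the spread between arrays, which may be technical, and the number of arrays limits the precision.

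Insulin binds the receptor tyrosine kinase Insr, which phosphorylates docking proteins such as Irs1 and Shc1. Docked PI3-kinase makes the membrane lipid that brings Pdpk1 and the AKT kinases together. AKT then holds back Gsk3, Foxo1, Tbc1d4 and the Tsc1-Tsc2 complex, so that muscle and fat take up glucose, store glycogen and make protein through mTOR. Much of this control acts on proteins by phosphorylation, which an array of RNA does not measure.

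Level is given throughout as log2 of the background-corrected intensity, scaled so that all 12 arrays share 1 distribution. A difference is a log2 difference between group means with its standard error (SE), tested with limma across all 29922 probes. A gene is called higher or lower where the Benjamini-Hochberg adjusted p is under 0.05. A probe counts as above background on an array where its raw intensity passes that array's own threshold, set from the dim side of its intensity distribution. In bulk RNA, fewer cells of a type and less RNA per cell cannot be told apart.

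The groups differed in how much of the array was above background. Between 2546 and 4101 probes passed on the normal mock arrays, 5660 to 8248 on normal mcIRBP, 10220 to 12451 on diabetic mock and 4302 to 8080 on diabetic mcIRBP. Markers of skeletal muscle did not bear out the tissue label: of 29 measured, 1, 1, 8 and 4 were above background on all 3 arrays of the respective groups, and 9, Myh7, Myod1 and Myog among them, were below it on all 12. Adipose markers were above background on all 3 arrays for 16, 17, 19 and 8 of 19, liver markers for 17, 3, 5 and 1 of 19, and epididymis markers for 0, 0, 14 and 18 of 18. Summed over the list, adipose intensity was 36336 to 43439, 64676 to 74844, 66743 to 69322 and 9241 to 9852 in the same order. Liver intensity was 76039 to 81786 on normal mock arrays and 8029 to 9480 on normal mcIRBP arrays, and epididymis intensity was 2688 to 2724 on diabetic mock arrays and 86598 to 93434 on diabetic mcIRBP arrays. These shifts run between the same groups as the comparisons below, and their part in the results was not tested.

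**Figure D1:**
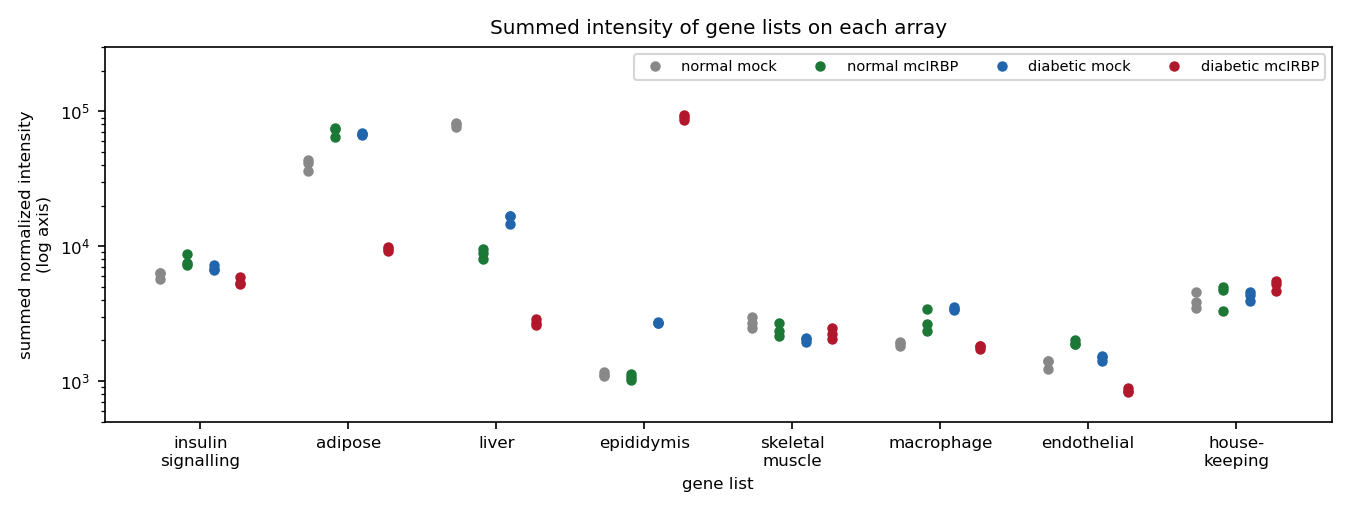
Summed intensity of each marker list and of the insulin signalling genes on every array (log axis), by group. The epididymis markers lie between 86598 and 93434 on the diabetic mcIRBP arrays against 2688 to 2724 on the diabetic mock arrays. The insulin signalling genes lie at 5716 to 6374 in normal mock and 7285 to 8785 in normal mcIRBP. In diabetic mock they lie at 6697 to 7210, and in diabetic mcIRBP at 5254 to 5870.

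The number of insulin signalling genes above background was lowest in normal mock and highest in diabetic mock, as for all genes. On all 3 arrays of the group, 7 of the 46 were above background in normal mock, 26 in normal mcIRBP, 34 in diabetic mock and 19 in diabetic mcIRBP. These are 15.2%, 56.5%, 73.9% and 41.3% of the members, beside 9.92%, 22.2%, 43.2% and 20.0% of all genes. Akt2, Eif4ebp1, Map2k1, Rapgef1, Flot1 and Socs3 were above background on all 12 arrays, and Irs1, Cblb, Grb14 and Prkci on none. The RAS-ERK branch was the most often measured on diabetic mock arrays, with 5 of 5 members above background on all 3, and the group of AKT, its substrates and the atypical protein kinases C the least, with 3 of 7.

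**Figure D2:**
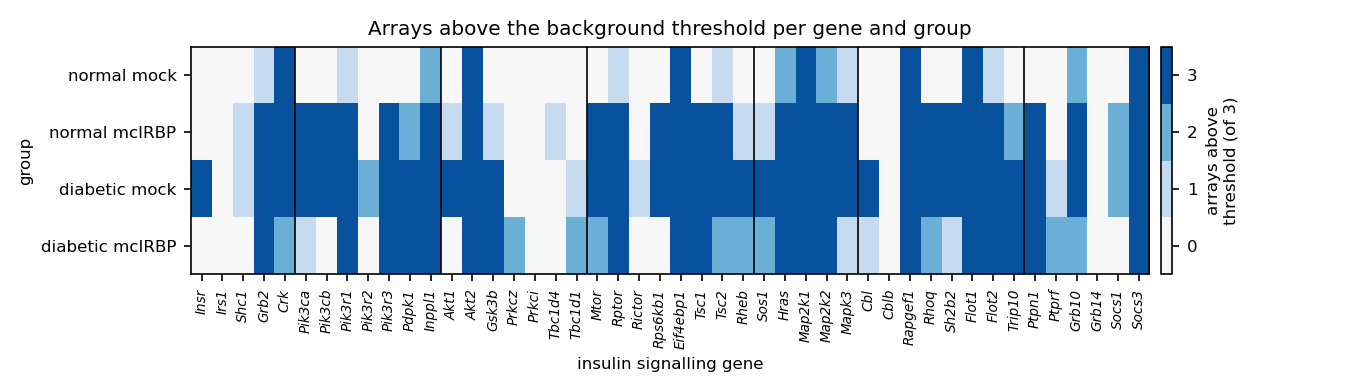
Number of arrays, of 3, on which each insulin signalling gene was above the background threshold, with genes in columns grouped by role and the 4 groups in rows. The normal mock row is mostly empty, with 7 genes above background on all 3 arrays, and the diabetic mock row is the fullest, with 34.

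The first comparison asks what mcIRBP did in normal mice. Grb10, Socs1 and Pik3r3 were called higher after mcIRBP and no member was called lower, which is 3 of 46 beside a background of 4.62% of all genes called higher and 3.32% called lower. The receptor with its substrates and adaptors, the AKT group, the mTOR branch, the RAS-ERK branch and the CBL-TC10 branch had no call. At an unadjusted p under 0.05, 13 of the 46 (28.3%) passed, beside 24.3% of all genes. The median difference over the 46 was 0.16 beside 0.01 over all genes, with 31 members on the positive side and 15 on the negative. When arrays were scaled by their medians instead, none of the 46 was called in either direction, beside 0.144% of all genes called higher and 1.16% lower. Without overlap between the 3 arrays of each group, 7 members were higher and 0 lower, beside 12.3% and 8.28% of all genes. Between these groups 17 of 19 liver markers were called lower and 6 of 15 macrophage and 4 of 11 endothelial markers higher, and their part in the members' values was not tested.

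Grb10 codes for an adaptor that binds the activated receptor and lowers its signalling. Its level was 7.13, 7.28 and 7.05 on the normal mock arrays and 7.56, 8.24 and 8.33 on the normal mcIRBP arrays. Every normal mcIRBP array was above every normal mock array. The difference was 0.89 with an SE of 0.17 (limma adjusted p = 0.0139), and 2 of 3 normal mock arrays and 3 of 3 normal mcIRBP arrays were above background. The call was lost, with the difference still positive, under 4 of 17 other settings (highest adjusted p 0.164).

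Socs1 and Socs3 code for cytokine-inducible proteins that bind the receptor or its substrates and target them for degradation. Socs1 read 5.90, 5.86 and 5.74 in normal mock and 6.59, 6.70 and 6.41 in normal mcIRBP, without overlap (limma adjusted p = 0.00225). No fold is given, because none of the 3 normal mock arrays was above background and the background level of those arrays was higher than the normal mcIRBP signal, which was above background on 2 of 3 arrays. Socs3 was above background on every array, at 9.08, 7.33 and 8.69 in normal mock and 9.21, 9.54 and 8.99 in normal mcIRBP, so the groups overlapped, with the second normal mock array low. Its difference of 0.88 (SE 0.36) did not pass (limma adjusted p = 0.199). The other brakes, Ptpn1, Ptprf and Grb14, were not called, and each was below background on all 3 normal mock arrays.

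The promoters of these 3 brakes are shown because their mcIRBP differences in normal and in diabetic mice were called unequal in the same direction. Each is the 250 bases before a RefSeq start (GRCm38.p6), 5′ to 3′ on the gene's strand, with capitals marking the STAT-type motif TTCNNNGAA and the GC box GGGCGG, searched on both strands. The Socs3 stretch lies within the gene's span of chr11:117966079-117970336, so the start used for it is not the outermost one.
Socs1, chr16:10785537-10785786, minus strand: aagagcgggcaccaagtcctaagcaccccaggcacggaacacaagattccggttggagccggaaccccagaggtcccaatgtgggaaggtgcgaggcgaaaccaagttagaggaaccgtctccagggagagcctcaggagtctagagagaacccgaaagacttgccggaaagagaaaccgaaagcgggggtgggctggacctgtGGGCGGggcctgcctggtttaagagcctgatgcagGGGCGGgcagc
Socs3, chr11:117969367-117969616, minus strand: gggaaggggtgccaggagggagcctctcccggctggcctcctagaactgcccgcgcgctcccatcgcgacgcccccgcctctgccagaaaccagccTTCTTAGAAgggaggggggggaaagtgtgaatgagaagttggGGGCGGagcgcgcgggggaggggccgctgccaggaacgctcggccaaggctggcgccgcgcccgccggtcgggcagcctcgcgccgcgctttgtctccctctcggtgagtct
Grb10, chr11:12037421-12037670, minus strand: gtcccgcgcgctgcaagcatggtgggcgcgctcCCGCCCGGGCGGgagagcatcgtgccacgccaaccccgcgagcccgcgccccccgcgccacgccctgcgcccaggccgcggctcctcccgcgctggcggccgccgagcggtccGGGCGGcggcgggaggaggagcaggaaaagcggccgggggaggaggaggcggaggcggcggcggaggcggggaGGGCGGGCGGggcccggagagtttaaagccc
Socs3 carried 1 STAT-type match, TTCTTAGAA, from 154 to 146 bases before its start. That motif was held by 7.02% of the 32851 RefSeq promoters searched at this length and by 4 of the 57 promoters of the 42 members that have one. The promoters searched leave out 1 chromosome. GC boxes numbered 2 in Socs1, 1 in Socs3 and 5 in Grb10, some of them overlapping. At least 1 GC box was held by 32.7% of all promoters and by 37 of the 57 member promoters. The bases are G or C at 61.2% of positions in Socs1, 71.6% in Socs3 and 81.2% in Grb10, beside a mean of 53.2% over all promoters. A second Grb10 promoter in RefSeq, at chr11:12027972-12028221, held neither motif. A match describes letters only, and no binding was measured.

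Pik3r3 codes for a regulatory subunit of PI3-kinase. In normal mock it read 6.0, 5.86 and 6.41, below background on all 3 arrays, and in normal mcIRBP 6.76, 6.81 and 6.70, above it on all 3. The groups did not overlap (limma adjusted p = 0.0127), and no fold is given for the same reason as for Socs1. Pik3ca and Pik3cb, the catalytic subunits, were below background on all 3 normal mock arrays and above it on all 3 normal mcIRBP arrays. Pik3ca read 6.26, 6.36 and 6.41 in normal mock and 6.59, 6.90 and 6.53 in normal mcIRBP, and Pik3cb 5.90, 6.12 and 6.41 against 6.52, 6.51 and 6.60. Neither overlapped between the groups and neither passed the test, with limma adjusted p = 0.144 for Pik3ca and 0.0717 for Pik3cb.

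The receptor, its substrates and the core kinases were not called in normal mice. Insr, the receptor, read 5.85, 5.82 and 5.68 in normal mock and 6.05, 5.94 and 5.83 in normal mcIRBP, below background on all 6 arrays. Irs1, its main substrate in muscle, read 5.71, 5.79 and 6.20 against 5.82, 5.77 and 5.71, also below background throughout. Of the AKT kinases, Akt2 is the form most tied to glucose uptake. It read 7.40, 7.96 and 7.63 in normal mock and 7.71, 6.53 and 7.72 in normal mcIRBP, a difference of -0.34 (SE 0.28; limma adjusted p = 0.499), with the second normal mcIRBP array the lowest. The other 2 Akt2 probes were below background on all 6 of these arrays. Akt1 read 5.75, 6.36 and 5.88 against 5.89, 6.39 and 6.45, with overlap. Gsk3b, the kinase that holds back glycogen synthesis, read 6.40, 6.04 and 5.88 against 6.76, 5.94 and 6.45, also with overlap. Tbc1d4, the AKT substrate that retains the glucose transporter Glut4 inside the cell, read 6.0, 5.86 and 5.96 against 5.93, 6.23 and 6.04. Akt1, Gsk3b and Tbc1d4 were above background on no normal mock array.

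Pik3r1, the most studied regulatory subunit of PI3-kinase, read 7.24, 6.75 and 7.11 in normal mock and 7.68, 6.84 and 6.81 in normal mcIRBP, with overlap. Pdpk1, which phosphorylates AKT, read 6.12, 6.59 and 6.75 against 6.90, 6.20 and 6.53. Mtor, the growth kinase below AKT, read 6.73, 6.83 and 6.88 against 6.50, 6.21 and 6.78. The normal mcIRBP values of Pik3r1, Pdpk1 and Mtor thus lay partly within the normal mock range, and none of the 3 passed the test. Pdpk1 and Mtor were above background on no normal mock array and Pik3r1 on 1, so those mock values are mostly background. Eif4ebp1, which blocks cap-dependent translation until mTOR phosphorylates it, read 9.53, 9.84 and 9.64 in normal mock. It read 11.22, 9.23 and 10.46 in normal mcIRBP, a wide spread that contains the normal mock values, and the difference of 0.63 (SE 0.39) did not pass (limma adjusted p = 0.379). Mapk3, the ERK1 kinase, read 6.81, 5.86 and 6.66 against 6.60, 6.68 and 6.56, again with overlap, and was above background on 1 normal mock array. Flot1, a lipid-raft protein of the CBL-TC10 branch, came nearest to a call among members above background everywhere, with 7.55, 7.42 and 7.47 in normal mock and 8.23, 8.69 and 8.07 in normal mcIRBP (difference 0.85, SE 0.23; limma adjusted p = 0.06).

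**Figure D3:**
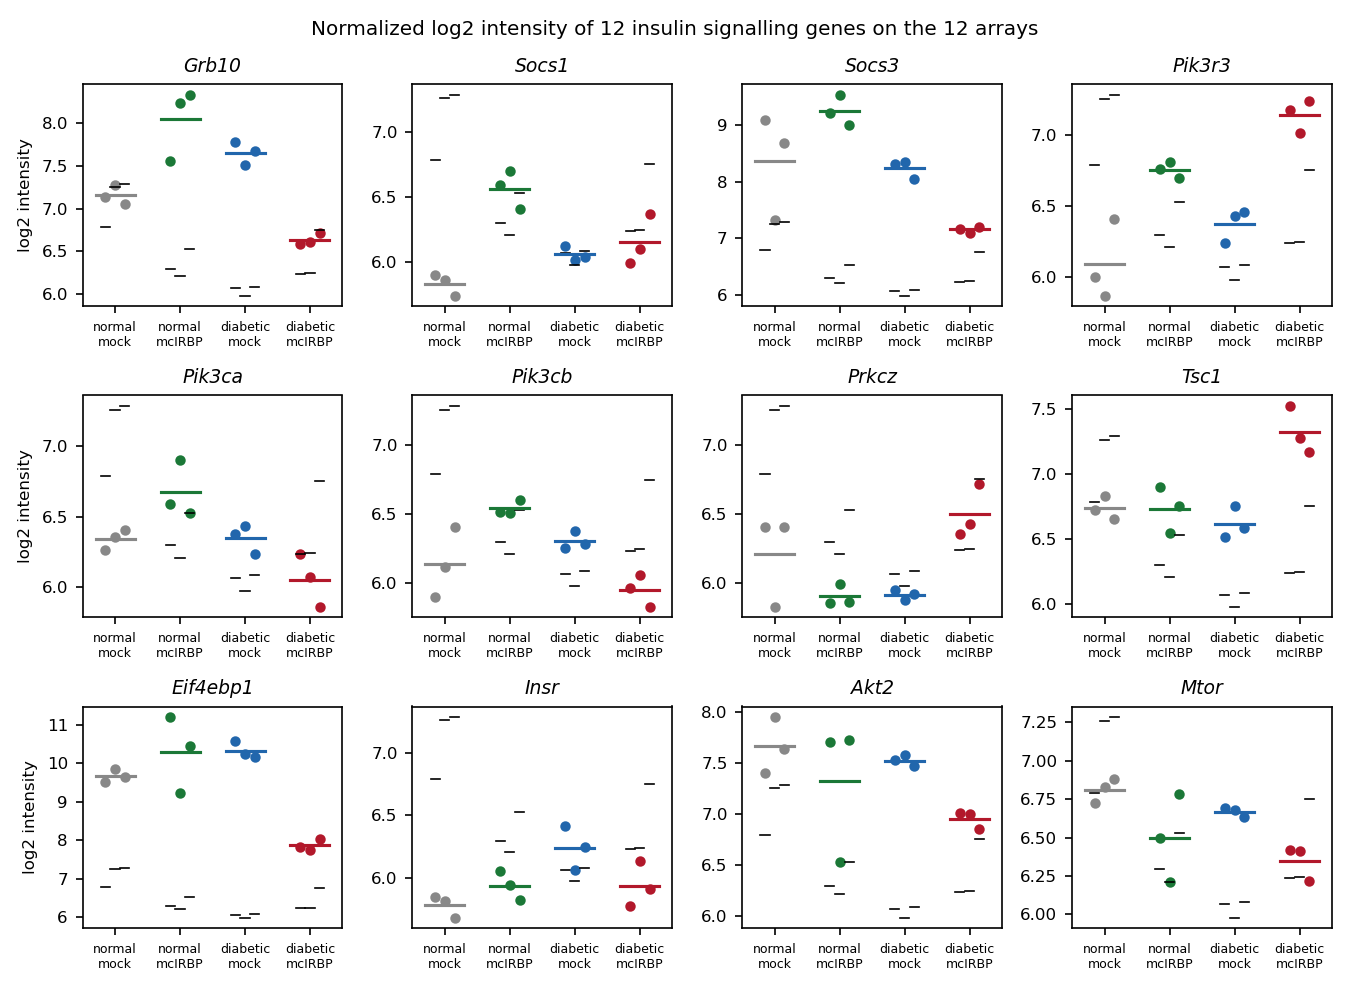
Log2 intensity of 12 insulin signalling genes on each of the 12 arrays, by group, with coloured lines at group means and a short black line at the lowest level above background on that array. Grb10 lies higher on normal mcIRBP than on normal mock arrays and lower on diabetic mcIRBP than on diabetic mock arrays, and Eif4ebp1 falls to 7.76 to 8.04 on the diabetic mcIRBP arrays.

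In diabetic mice, Pik3r3, Tsc1 and Prkcz were called higher after mcIRBP and Eif4ebp1 and Grb10 lower. That is 3 higher and 2 lower of 46, beside 5.26% and 4.21% of all genes. The median over the members was -0.05 beside 0.01 over all genes, with 20 positive and 26 negative. With median scaling 1 member was called higher and 12 lower, beside 3.52% and 14.0% of all genes. Between these 2 groups the epididymis markers were called higher for 18 of 18, the adipose markers lower for 15 of 19, the macrophage markers lower for 7 of 15 and the endothelial markers lower for 6 of 11, and their part in the members' values was not tested.

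Eif4ebp1 had the widest gap. On the diabetic mock arrays it read 10.59, 10.23 and 10.18, and on the diabetic mcIRBP arrays 7.83, 7.76 and 8.04, all above background. The difference was -2.46 with an SE of 0.39 (limma adjusted p = 0.0032). It was called lower under all 17 other settings, with differences from -3.54 to -1.30. Eif4ebp1 lies at chr8:27260327-27275656 of GRCm38. A second Eif4ebp1 probe was below background on all 12 arrays.

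Grb10, which had been called higher in normal mice, was called lower in diabetic mice. It read 7.77, 7.51 and 7.68 on the diabetic mock arrays and 6.59, 6.60 and 6.72 on the diabetic mcIRBP arrays, the latter above background on 2 of 3. The groups were apart by more than their spread, with a difference of -1.02 (SE 0.17; limma adjusted p = 0.00506). This call also held under all 17 other settings, between -1.70 and -0.50. The gene spans chr11:11930499-12037428 of GRCm38, and its second probe was below background on all 12 arrays.

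Tsc1 codes for hamartin, which with Tsc2 restrains Rheb and so mTOR. Its level was 6.51, 6.75 and 6.59 in diabetic mock and 7.53, 7.28 and 7.17 in diabetic mcIRBP, above background on all 6 arrays and without overlap. The difference was 0.71 (SE 0.11; limma adjusted p = 0.00354), and with median scaling it was 0.07 and not called (adjusted p = 0.841). Its partner Tsc2 read 6.75, 6.66 and 6.69 against 6.60, 6.55 and 6.47, on the opposite side of 0. Rheb, the small GTPase that activates mTOR, read 6.57, 6.11 and 6.64 against 6.36, 6.36 and 6.39.

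Pik3r3 was called higher in diabetic mice as well, at 6.24, 6.43 and 6.46 in diabetic mock and 7.18, 7.01 and 7.24 in diabetic mcIRBP. The difference was 0.77 (SE 0.13; limma adjusted p = 0.00441), with all 6 arrays above background. It was 0.25 and not called with median scaling (adjusted p = 0.442). The second Pik3r3 probe did not pass in normal mice, where it was below background on all 3 mock arrays (limma adjusted p = 0.06), or in diabetic mice, where its difference was 0.59 (limma adjusted p = 0.052).

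Prkcz codes for an atypical protein kinase C that PI3-kinase activates. It was below background on all 3 diabetic mock arrays at 5.94, 5.87 and 5.92, and read 6.36, 6.43 and 6.72 in diabetic mcIRBP, where 2 of 3 arrays were above background. Against the background level its mean was 1.38-fold higher (limma adjusted p = 0.0445). The array that read 6.72 was the one below its own background, so the fold is not a strict bound. Leaving out any 1 of the 6 arrays ended the call, with adjusted p between 0.0628 and 0.157.

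The remaining backbone genes were not called in diabetic mice. Insr read 6.41, 6.07 and 6.25 in diabetic mock, the only group in which it was above background, and 5.78, 6.13 and 5.91 in diabetic mcIRBP. Irs1 stayed below background on all 6 arrays, between 5.66 and 5.68. Pik3ca read 6.38, 6.44 and 6.23 against 6.23, 6.07 and 5.86, and Pik3cb 6.25, 6.38 and 6.28 against 5.96, 6.05 and 5.82. Pik3cb did not overlap between the groups, and Pik3ca overlapped at its edge. The regulatory subunit Pik3r1 read 7.31, 7.50 and 7.38 against 6.81, 6.47 and 6.75, without overlap but short of the threshold (difference -0.72, SE 0.22; limma adjusted p = 0.0971). Pdpk1 read 6.60, 6.40 and 6.62 against 6.71, 6.75 and 6.79, a small gap with no overlap (difference 0.21; limma adjusted p = 0.828).

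For the AKT kinases, Akt1 read 6.13, 6.41 and 6.14 in diabetic mock and 5.93, 6.01 and 5.80 in diabetic mcIRBP, and Akt2 7.52, 7.58 and 7.47 against 7.0, 7.0 and 6.85. Both were lower without overlap and neither passed the test (limma adjusted p = 0.535 and 0.388). Gsk3b read 6.76, 6.37 and 6.68 against 6.64, 6.63 and 7.14, and Tbc1d4 5.80, 5.94 and 5.81 against 5.78, 5.81 and 5.91. These 2 overlapped. Mtor read 6.69, 6.68 and 6.63 against 6.42, 6.41 and 6.22, lower without overlap (difference -0.32, SE 0.12; limma adjusted p = 0.225). Mapk3 read 6.31, 6.29 and 6.41 against 6.19, 6.34 and 6.37. Over all members, 9 were higher and 12 lower without overlap between the 3 arrays of each group, beside 19.6% and 20.8% of all genes.

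Among the brakes, Socs3 read 8.32, 8.35 and 8.05 in diabetic mock and 7.17, 7.10 and 7.19 in diabetic mcIRBP. The groups did not overlap, and the difference of -1.09 (SE 0.36) did not pass (limma adjusted p = 0.134). Socs1 read 6.12, 6.01 and 6.04 against 5.99, 6.10 and 6.37, with overlap. Ptprf, a receptor-type tyrosine phosphatase, read 6.04, 6.05 and 6.07 against 6.34, 6.45 and 6.72 (difference 0.45, SE 0.12; limma adjusted p = 0.0572). Ptpn1, the phosphatase PTP1B that dephosphorylates the receptor, read 7.36, 7.10 and 7.22 against 7.37, 7.47 and 7.24, with overlap.

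The test of whether mcIRBP acted unequally in the 2 disease states compares the 2 differences above. Grb10, Eif4ebp1, Pik3cb, Socs1, Socs3 and Pik3ca had a lower mcIRBP difference in diabetic than in normal mice, and Tsc1 and Prkcz a higher one. That is 6 lower and 2 higher of 46, beside 6.61% and 5.85% of all genes. With median scaling 19 were called lower and 1 higher, beside 22.0% and 5.04% of all genes, and that scaling moved the median over all genes from 0.01 to -0.18. Of the 6 brakes, Grb10, Socs3 and Socs1 were called lower, and the Socs1 gap turns to 0.90 with its dim groups at their background level. Disease state and labelled sex fall on the same arrays and cannot be told apart.

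The gap between the 2 differences was -1.91 for Grb10 (SE 0.25; limma adjusted p = 0.00071) and -3.09 for Eif4ebp1 (SE 0.55; limma adjusted p = 0.00566). Both were called under all 22 other settings, as was Pik3cb, at -0.76 (SE 0.16; limma adjusted p = 0.0147). Socs3, at -1.97 (SE 0.51; limma adjusted p = 0.0395), lost its call when any array other than the 3 normal mock arrays was left out, with adjusted p up to 0.102. The replicate number as a block also ended the Socs3 call. Pik3ca, at -0.63 (limma adjusted p = 0.0442), lost its call without any of 10 arrays, all but the third normal mcIRBP and the first diabetic mcIRBP array, with adjusted p up to 0.116. The Pik3ca call also ended with the authors' normalized column, array weights or a trended robust prior (up to 0.216). Socs1 stood at -0.63 (limma adjusted p = 0.0235), Tsc1 at 0.71 (limma adjusted p = 0.0205) and Prkcz at 0.90 (limma adjusted p = 0.0256). The Socs1 call ended without any diabetic mock array or the first or the second diabetic mcIRBP array (adjusted p up to 0.0725). It also ended with the authors' normalized column, the replicate block or the mean over its probes (up to 0.154). The Tsc1 call ended without the first or the third diabetic mock array (up to 0.0595). With median scaling the Tsc1 gap reversed to -0.50 and was not called (adjusted p = 0.369), and its call also ended with array weights, a trended robust prior or the mean over its probes. The Prkcz call ended without any diabetic mock array, the third array of any other group or the first normal mcIRBP array (up to 0.0677).

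Dim groups weigh on these gaps, because the background level differed between the arrays. With each group that was below background on all 3 arrays set to its background level, Socs1 turned to 0.90, Pik3cb to 0.68 and Pik3ca to 0.14, all of opposite sign. Grb10, Eif4ebp1 and Socs3, which have no such group, stayed as given, and Tsc1 went to 1.09. Prkcz went to 1.23, but it was below background on all 3 arrays of every group except diabetic mcIRBP. Its difference in normal mice was thus between levels below background.

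**Figure D4:**
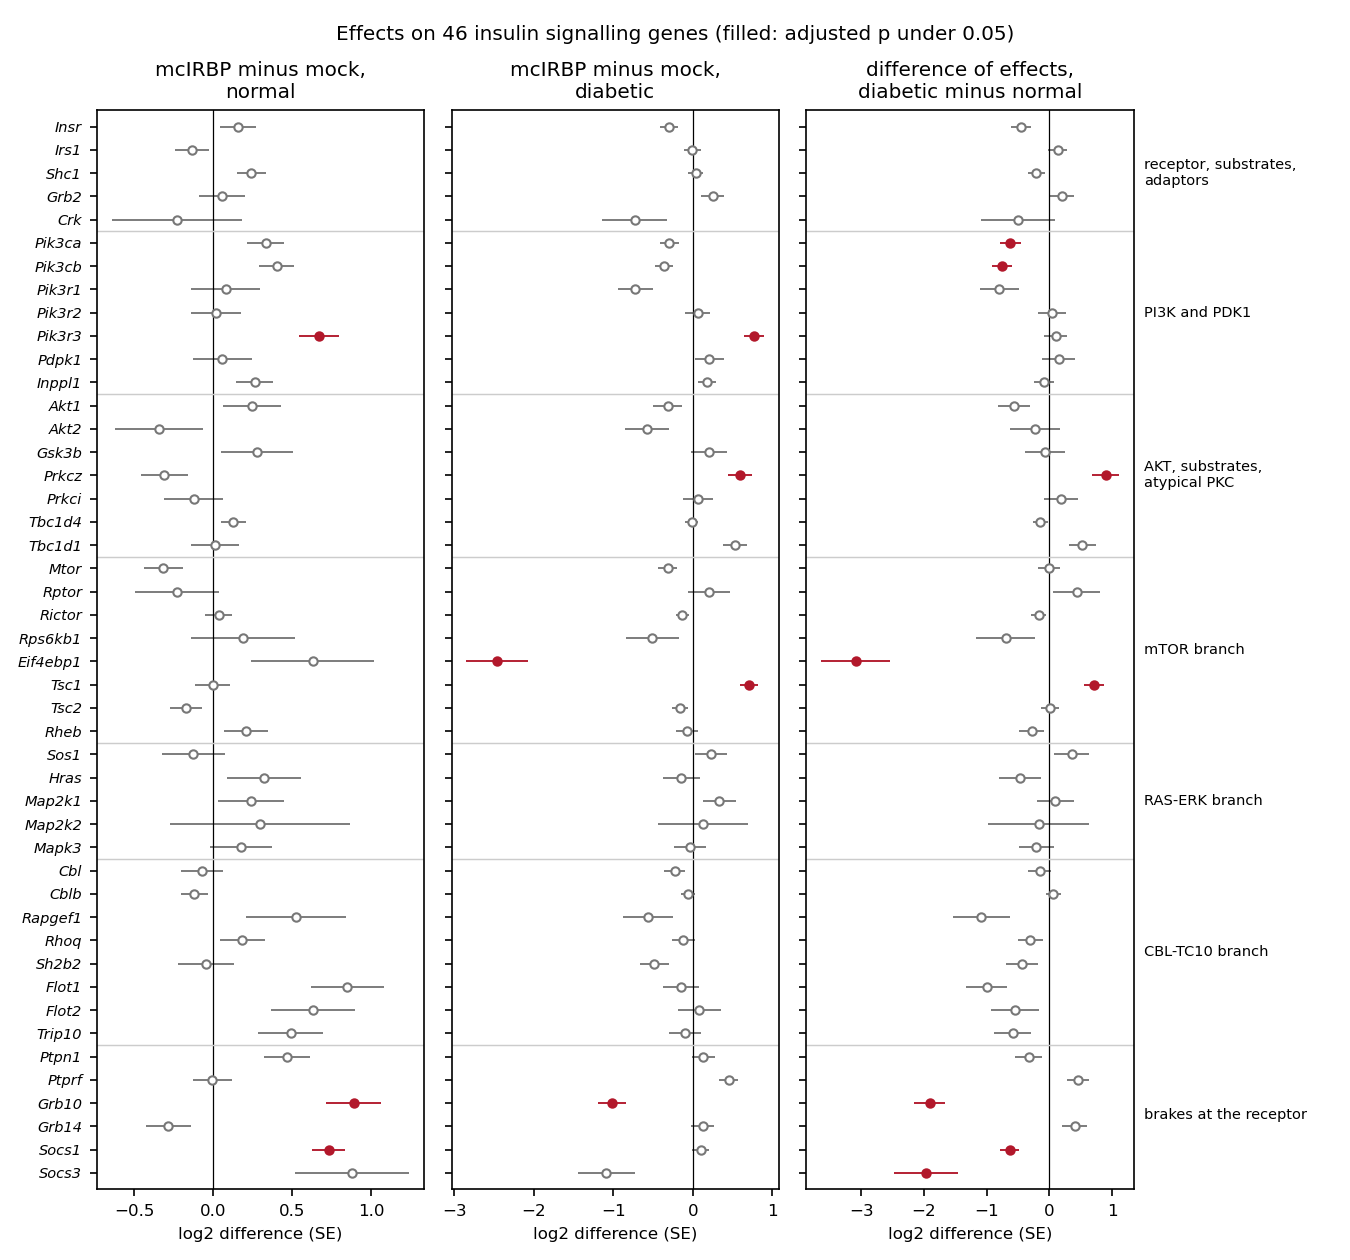
Log2 difference with its SE for the 46 measured insulin signalling genes, by role, after mcIRBP in normal mice, in diabetic mice and for the gap between them, with filled points where the adjusted p was under 0.05. Grb10 lies at 0.89, -1.02 and -1.91 in the 3 panels, and Eif4ebp1 at 0.63, -2.46 and -3.09.

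The untreated groups ask how the members stood in diabetic against normal mice without mcIRBP, with sex differing as well. These arrays also enter the comparisons above, so the values are given on their own. Trip10 and Insr were called higher in diabetic mock, 2 of 46 beside 5.83% of all genes called higher, and 0 lower beside 4.4%, with 7 of 46 (15.2%) at an unadjusted p under 0.05 beside 27.6% of all genes. Between these groups 9 of 18 epididymis and 7 of 15 macrophage markers were called higher and 17 of 19 liver and 8 of 29 skeletal muscle markers lower, and their part was not tested. With median scaling 35 were called higher and 2 lower, beside 43.8% and 12.2% of all genes, and the median over all genes moved from 0.01 to 0.28. Insr (chr8:3150922-3279649 of GRCm38) went from 5.85, 5.82 and 5.68 to 6.41, 6.07 and 6.25, without overlap (limma adjusted p = 0.0357), and its call ended without the second or the third normal mock array or the first or the third diabetic mock array, with adjusted p up to 0.144. Trip10, the CIP4 adaptor that works with the TC10 GTPase Rhoq, read 6.12, 5.71 and 5.81 in normal mock and 6.84, 6.82 and 7.03 in diabetic mock, without overlap (limma adjusted p = 0.0145). Leaving out the first or the third diabetic mock array ended that call, with adjusted p up to 0.0677. Neither gene has a fold, since both were below background on all 3 normal mock arrays and the background level of those arrays was higher than the diabetic mock signal.

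Between the treated groups, 3 members were higher and 6 lower in diabetic than in normal mice, beside 7.83% and 7.45% of all genes. Epididymis markers were called higher for 18 of 18, and adipose markers lower for 16 of 19, macrophage for 7 of 15 and endothelial for 7 of 11, and their part was not tested. Grb10 differed by -1.41 (limma adjusted p = 0.000516), Eif4ebp1 by -2.42 (limma adjusted p = 0.00276) and Socs3 by -2.09 (limma adjusted p = 0.00419). The 3 genes thus lay lowest in the diabetic mcIRBP group. Pik3ca was lower by -0.62 (limma adjusted p = 0.00744), Pik3cb at least 1.10-fold lower and Socs1 at least 1.11-fold lower. Tsc1 was higher by 0.59 (limma adjusted p = 0.0077). Against the background level, the means of Ptprf and Prkcz were each 1.12-fold higher. For both, the third diabetic mcIRBP array read highest, at 6.72, but was below its own background. The 1.12 is therefore not a strict bound. Leaving out 1 array ended the Ptprf call (without the third normal mcIRBP or the third diabetic mcIRBP array, adjusted p up to 0.0592), the Prkcz call (without the first or the third normal mcIRBP or the second or the third diabetic mcIRBP array, up to 0.103) and the Socs1 call (without the first or the second array of either group, up to 0.107). With median scaling 2 members were called higher and 2 lower, beside 4.92% and 1.2% of all genes.

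By group, 16 of the 46 members had their highest mean in normal mcIRBP, 13 in diabetic mcIRBP, 9 in diabetic mock and 8 in normal mock, which is 34.8%, 28.3%, 19.6% and 17.4%, beside 25.0%, 27.6%, 17.4% and 30.0% of all genes. Of the 6 brakes, 4 were highest in normal mcIRBP and none in diabetic mock. The RAS-ERK branch, from the exchange factor Sos1 to the kinases Map2k1, Map2k2 and Mapk3, had no call in any of the 5 comparisons by the brightest probe of each gene. Between 3.32% and 7.83% of all genes were called per direction and comparison, so no call among 5 members is near that share. A second probe of Hras, the RAS GTPase, was called lower in diabetic than in normal mice between the treated groups (difference -0.65; limma adjusted p = 0.042), above background on all 6 arrays. Its most variable member was Map2k2, at 8.67, 5.82 and 8.08 in normal mock, where the second array was far below the others. In the CBL-TC10 branch, Rapgef1, an exchange factor that acts through Crk, read 8.60, 8.63 and 8.77, then 9.26, 9.81 and 8.51, in normal mock and normal mcIRBP. It read 8.67, 8.46 and 8.87, then 7.71, 7.93 and 8.67, in the diabetic groups, and was not called.

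Several members have more than 1 probe, and their probes did not always share a call. Of 18 calls of such genes over the 5 comparisons, 2 were shared by all other probes of the gene, 5 had another probe of opposite sign, and 0 had another probe called in the opposite direction. Other probes of Socs1, Tsc1 and Prkcz were below background on all 12 arrays. Besides the second Hras probe, a second probe of Cblb and one of Ptpn1 were called higher in diabetic than in normal mock (limma adjusted p = 0.013 for each). No fold is given, because both were below background on all 3 normal mock arrays, whose background level was higher than the diabetic mock signal. The same Cblb probe was called lower in the difference of effects (limma adjusted p = 0.035), with 3 of its 4 groups below background. Between the treated groups, second probes of Eif4ebp1 and Prkcz were called in the direction of the first (limma adjusted p = 0.025 and 0.045) while below background on all 12 arrays.

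Of 82 further genes of the pathway, 74 were measured. After mcIRBP 8 of the 74 were called higher and 1 lower in normal mice, beside 4.62% and 3.32% of all genes, and 3 higher and 7 lower in diabetic mice, beside 5.26% and 4.21%. Cav1, the caveolin that forms the membrane pits in which insulin receptors lie in fat cells, read 10.67, 10.13 and 10.54 in normal mock and 12.36, 12.13 and 12.67 in normal mcIRBP (difference 1.94; limma adjusted p = 8.59e-05). In diabetic mice it read 11.37, 11.51 and 11.13 in mock and 8.74, 8.47 and 8.82 after mcIRBP (difference -2.66; limma adjusted p = 8.48e-06). The adipose marker intensity moved the same way between these groups, and its part was not tested. Irs4, a docking protein, the RAS exchange factor Sos2, the RAS gene Nras and the ERK inhibitor Spry2 were also called higher in normal mice, each below background on all 3 normal mock arrays. Ddit4, the stress-induced inhibitor of mTOR known as REDD1, was lower in both, by -0.92 in normal mice and -1.36 in diabetic mice (limma adjusted p = 0.000967 and 4.78e-05). Its relative Ddit4l rose in diabetic mice by 2.87 (limma adjusted p = 2.48e-07), Foxo3 by 1.33 (limma adjusted p = 0.00452), and Enpp1, which inhibits the receptor, was at least 3.03-fold higher. Ywhab, a 14-3-3 protein that binds AKT substrates, differed by -2.71 in diabetic mice, the phosphatase Dusp1 by -1.45 and the mTOR partner Deptor by -1.14 (limma adjusted p = 0.00278, 0.0298 and 0.0253).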

How the data were processed

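The 12 files hold 1-colour spot intensity, deposited by the authors as a raw and a normalized column. Per the labels, 5 µg of total RNA was amplified and labelled with Cy5, and the submitters' processing notes name limma. The normalized intensity that the authors deposited ranks probes as the raw column does and was made separately within each disease state, as its values show, so the raw column was used. From it, background was corrected with normexp (offset 50), arrays were quantile normalized together, and log2 values were tested with limma 3.58.1 (R 4.3.3), with 1 mean per group over 12 arrays (8 residual degrees of freedom), two-sided, and Benjamini-Hochberg adjustment over 29922 probes. An array's background threshold is the mode of its log2 raw intensity plus 5 SD of the values mirrored below the mode. A fold against a group below it on all 3 arrays is a bound, but not a strict one where an array of the other group was below it too. Gene symbols came from the platform's annotation (21020 probes with, 8902 without); promoters came from RefSeq. Values per array are given for members called in a mcIRBP comparison or in the difference of effects and for a backbone of 13 genes, Foxo1 (no probe) included; others are summarised. Up to 5 called genes per direction are named from the list of further genes. The members and lists were chosen with earlier results of these data known. The test was checked on simulated data. Alternatives changed the background correction, its offset, the scaling, the arrays fitted, the deposited column, a filter on dim probes, array weights, the variance prior, the replicate block, the probe rule and each array in turn.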

Additional observations from a re-analysis of the deposited data

Results flagged for a closer look

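The mcIRBP difference in diabetic mice minus that in normal mice passed the limma test of the difference itself (adjusted p under 0.05 over all probes) for 8 insulin signalling genes. On the log2 scale it was -3.09 for Eif4ebp1, -1.97 for Socs3, -1.91 for Grb10, -0.76 for Pik3cb, -0.63 for Socs1, -0.63 for Pik3ca, 0.71 for Tsc1 and 0.90 for Prkcz. With groups below background on all 3 arrays set to their background level, Pik3cb turned to 0.68, Socs1 to 0.90 and Pik3ca to 0.14, and with median scaling Tsc1 turned to -0.50. Prkcz was below background on all 3 arrays of every group except diabetic mcIRBP. Disease state and labelled sex cannot be told apart in the difference.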

How the results depend on the processing

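Calls kept under every alternative run were 0 of 3 for mcIRBP in normal mice, 2 of 5 in diabetic mice (Eif4ebp1 and Grb10), 3 of 8 for the difference (Grb10, Eif4ebp1 and Pik3cb), 0 of 2 between the mock groups and 1 of 9 between the treated groups (Grb10). Setting dim groups to their background level was not among these alternatives, and it turned the Pik3cb difference to the opposite sign. Over the named genes, 1601 values kept their direction and side of the threshold, 66 changed sign without a call in either setting, 90 lost the call, 55 gained one and 6 reversed with a call, and the cause was not tested. The counts that follow show only how the calls moved. Apart from median scaling, given above, they have no share of all genes beside them and are not results about the members. Members called higher in normal mice numbered 0 with median scaling, 1 with the 6 arrays alone and 1 with array weights. In diabetic mice, higher and lower calls numbered 1 and 12 with median scaling, 6 and 9 with the 6 arrays alone, 5 and 5 with the authors' normalized column and 7 and 13 with array weights, and lower calls 4 with dim probes left out. For the difference, 1 was higher with median scaling, dim probes left out, array weights, a trended robust prior or the mean over a gene's probes, and 19 were lower with median scaling. Between the mock groups, calls numbered 35 and 2 with median scaling and 5 and 1 with the 6 arrays alone, with 1 higher under array weights. Between the treated groups, lower calls numbered 2 with median scaling and 3 with the 6 arrays alone, and higher calls 1 with dim probes left out. Leaving out each array in turn gave 3 to 5 higher and 0 to 2 lower in normal mice, 2 and 2 throughout in diabetic mice, 0 to 3 higher and 3 to 6 lower for the difference, 0 to 3 and 0 to 3 between the mock groups, and 1 to 3 and 5 to 8 between the treated groups. With median scaling Tsc1 reversed in the difference, to -0.50, and between the mock groups Akt2 reversed to 1.35, Mapk3 to 0.62, Mtor to 1.01, Socs3 to 1.64 and Tsc1 to 0.98. The replicate block left 1 member called higher between the mock groups. Deviations of same-numbered arrays correlated at -0.05, -0.15 and -0.00 in normal and -0.34, 0.11 and 0.25 in diabetic mice. Those of differently numbered arrays ranged from -0.17 to 0.16 in normal and from -0.42 to 0.50 in diabetic mice. With 3 arrays per group, these values cannot settle whether the numbers pair the arrays. Keeping only members under their present symbol, chosen after seeing the data, left each count within 1.5 times its value. Signal over background limits members below it, most of all on normal mock arrays.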

Other observations

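Of 28 genes whose RNA insulin is known to regulate in liver, fat or muscle, 26 were measured. In normal mice 3 were called higher after mcIRBP and 2 lower, beside 4.62% and 3.32% of all genes, and in diabetic mice 1 higher and 8 lower, beside 5.26% and 4.21%. In diabetic mice Pck1, the gluconeogenic enzyme that insulin represses, differed by -3.70, the desaturase Scd1 by -2.65, the phosphatidate phosphatase Lpin1 by -2.26 and the transcriptional cofactor Cited2 by -1.05 (limma adjusted p = 2.24e-05, 6.2e-05, 4.57e-05 and 0.00273). Pdk4, the kinase that shuts off pyruvate dehydrogenase, was at least 6.06-fold lower, and the fatty acid elongase Elovl6 was higher by 1.65 (limma adjusted p = 0.0473). Pck1 also stands in the adipose marker list, whose summed intensity was 66743 to 69322 in diabetic mock and 9241 to 9852 in diabetic mcIRBP. In normal mice G6pc, the liver enzyme that releases glucose, was at least 5.79-fold lower after mcIRBP, while summed liver marker intensity was 76039 to 81786 in normal mock and 8029 to 9480 in normal mcIRBP. Cited2 was higher by 0.73 (limma adjusted p = 0.0263). Gadd45a and Bcl6 were called higher and Sesn1 lower, with all 3 below background on every normal mock array and no fold given. The part of the marker shifts in these values was not tested.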
